A study of Homo sapiens with 12 samples.

Results

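The 8 genes described here are PCDH7, PCDH8, PCDH9, PCDH10, PCDH15, PCDH17, PCDH18 and PCDH20, taken by name as the non-clustered delta protocadherins from 19974 protein-coding genes on the 22 autosomes and X. They were chosen with earlier results of these data known, so their counts are a description. The set leaves out 3 other delta protocadherins (PCDH1, PCDH11X and PCDH19), which are read further below. All 8 were matched in the RefSeq annotation of GRCh38.p14, which shares its primary assembly with hg38, the build of the files. Lamina-associated domains (LADs), stretches of DNA in contact with the nuclear lamina, were mapped by pA-DamID, which brings the bacterial Dam methylase, fused to protein A, to the lamina by means of an antibody to lamin B1 (LMNB1). There the enzyme methylates adenines in GATC sequences close by, and the methylated fragments are sequenced. The cells were H9, 1 established human embryonic stem cell line that all groups share. Naive cells were kept in RSeT and gave 3 LMNB1 and 3 Dam-only libraries. Primed cells were kept in mTeSR and also gave 3 LMNB1 and 3 Dam-only libraries. Dam-only libraries used Dam without the antibody and serve as the control for accessibility. The files used here hold 1 list of LAD intervals per state and no signal or replicate, so each state has a single value for every gene, the depth behind it is unknown, and no difference between naive and primed could be tested. No transcript was measured, so neither the cell state nor the expression of these genes could be checked against markers.

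Protocadherins are membrane proteins with a row of extracellular cadherin repeats, and they take part in weak, selective contacts between cells. Unlike the clustered alpha, beta and gamma protocadherins, which stand side by side on chromosome 5, the delta genes are scattered. They are best known in the developing nervous system, where they help to sort neurons, guide axons and form synapses. PCDH7 and PCDH9 belong to the delta-1 group, whose tails can bind protein phosphatase 1. PCDH8, PCDH10, PCDH17 and PCDH18 belong to the delta-2 group, several of which recruit the actin-regulating WAVE complex. PCDH20 is placed differently by different classifications. PCDH15 goes against the name of the set: it is a non-clustered protocadherin of the inner ear and retina that is not counted as a delta protocadherin, and it is kept here because the list names it.

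Of the 8 genes, 7 lay in LADs of both states and PCDH8 lay outside them in both. The call required cover of at least 50% of the body, from the first to the last annotated base. Of all protein-coding genes, 18.9% met this in naive, 17.3% in primed and 15.4% in both. Together the 8 bodies were 97.7% covered in naive, against 99.5% in primed. These shares are weighted by bases, and PCDH15 is the longest body. Without it, a setting chosen after seeing the data, they were 98.2% in naive and 99.0% in primed. The 4 bodies with no LAD-free base in naive were those of PCDH7, PCDH10, PCDH17 and PCDH20, and 12.2% of all protein-coding genes were wholly covered there. In primed, 6 bodies were wholly covered, those of PCDH7, PCDH9, PCDH10, PCDH15, PCDH18 and PCDH20, against 13.3% of all genes. The members were also read by length. All 3 members of 400 kb or longer (PCDH7, PCDH9, PCDH15) were in LADs of both lists, as were 56% of the 482 protein-coding genes of that length, a share well above that of shorter genes. Both members of 50 to 100 kb (PCDH10, PCDH17) were in, against 16.9% of 2907 genes. Of the 3 members under 20 kb, PCDH18 and PCDH20 were in and PCDH8 was not, against 10.2% of 8983 genes.

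**Figure D1:**
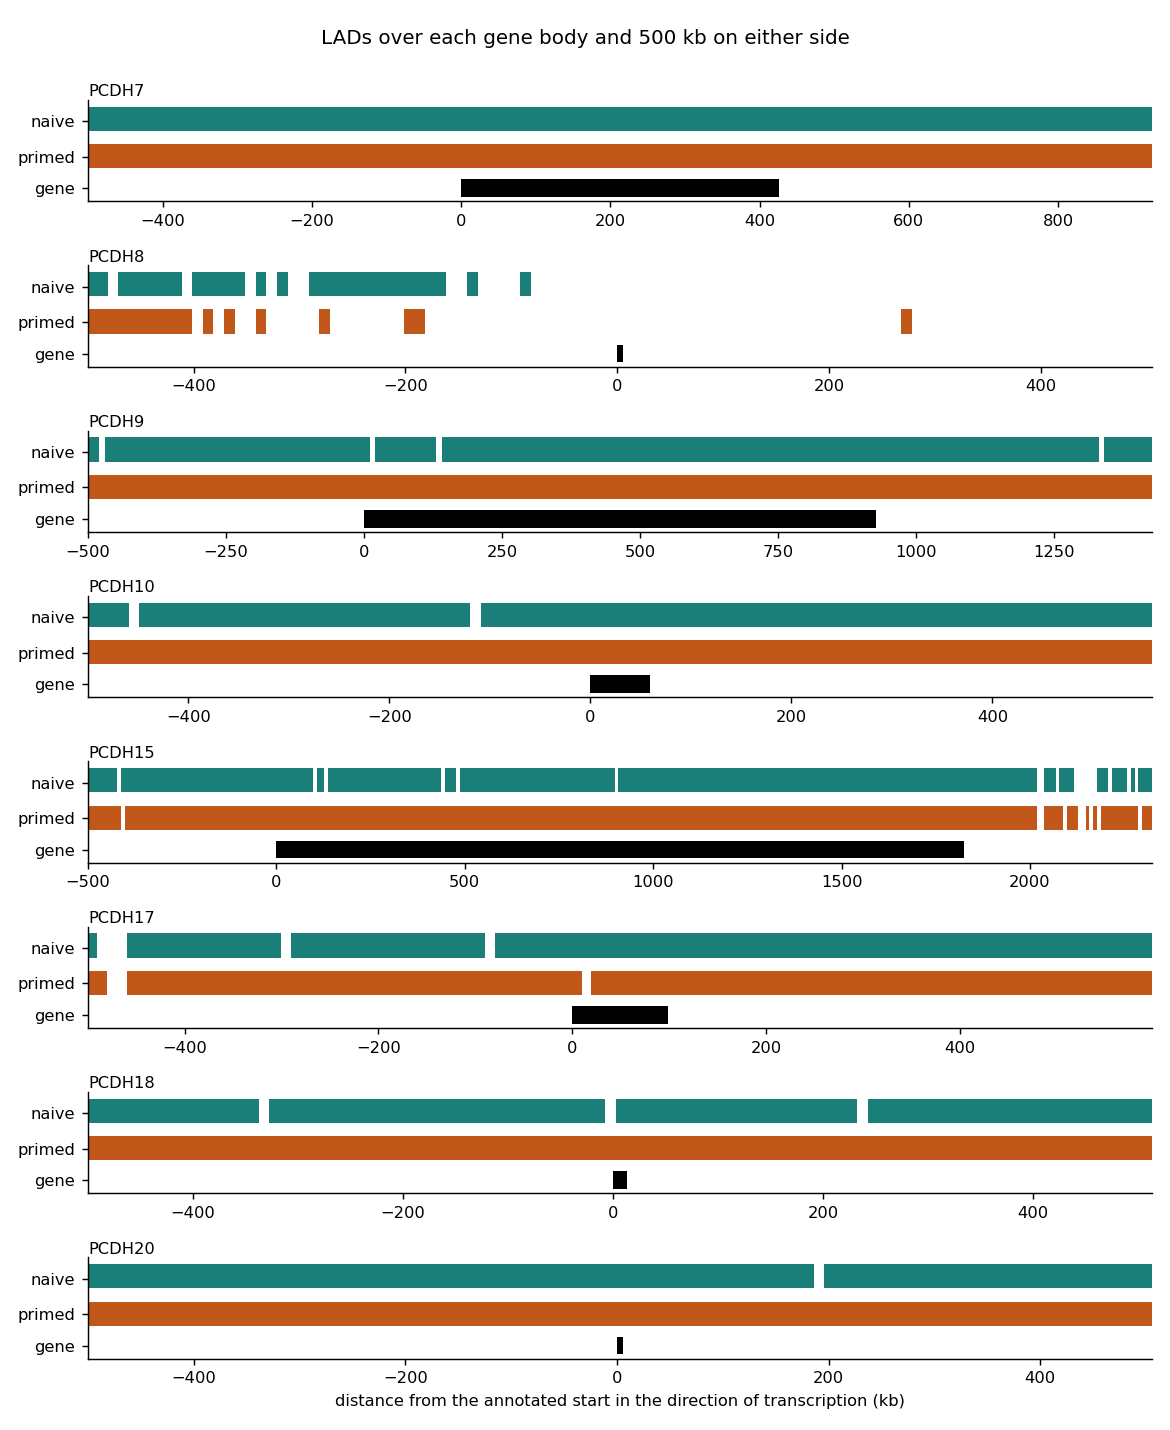
LADs of naive (upper track) and primed cells (middle track) over each gene body (black) and 500 kb on each side, plotted as distance from the annotated start in kb along the direction of transcription. Coloured bars are LADs and white breaks are LAD-free windows; PCDH8 alone has no LAD over its body, the bodies of PCDH9, PCDH15 and PCDH18 have breaks in naive only, and that of PCDH17 in primed only.

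The lists are built from 10 kb windows, and the bodies touched 343 of them. Of these windows 333 were in LADs of both states, 1 was in naive only, 8 were in primed only and 1 was in neither. The 9 windows that differed thus lay in only 4 genes, PCDH9, PCDH15, PCDH17 and PCDH18. The body share was equal in both lists for the other 4, PCDH7, PCDH8, PCDH10 and PCDH20. When LADs less than 50 kb apart were joined, the difference in body share was 0 for all 4 of the genes that differed.

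PCDH7 (gene ID 5099, chromosome 4, 30720369 to 31146800, plus strand, 426 kb) encodes BH-protocadherin, a delta-1 member of brain and heart. Its body was 100% covered in both lists, as were the 500 kb on each side. It lay in a single LAD of 2.78 Mb in naive (28990001 to 31770000) and of 4.74 Mb in primed (27080001 to 31820000). From its start, the nearest LAD-free base was 1050 kb away in naive and 1100 kb in primed, both downstream, beyond the end of the gene. PCDH7 is thus the member without any break, edge or difference in or near it in either list. A coding locus with only a placeholder name, LOC124900844, lies 1.25 kb before it and was covered at 100% in both, while the next coding gene on the other side, ARAP2, is 4859 kb away and was also at 100% in both.

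PCDH9 (gene ID 5101, chromosome 13, 66302834 to 67230336, minus strand, 928 kb), the second delta-1 member, is a neuronal gene whose loss in mice impairs recognition memory. LADs covered 97.8% of the body in naive and all of it (100%) in primed. The naive list left out 2 single windows, 67090001 to 67100000 and 67210001 to 67220000, both of them inside primed LADs. They lie 130 to 140 kb and 10.3 to 20.3 kb downstream of the start, so both breaks fall in the first part of the gene and the first 50 kb was 80% covered in naive, against 100% in primed. The last 50 kb was covered at 100% in both. Its 4 antisense RNA genes, PCDH9-AS1 to PCDH9-AS4, lie in the unbroken part and were covered at 100% in both.

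PCDH10 (gene ID 57575, chromosome 4, 133149294 to 133208606, 59.3 kb) encodes OL-protocadherin, a delta-2 member that guides axons through the striatum in mice. Both lists covered 100% of the body, and likewise of PCDH10-DT, the RNA gene transcribed away from it (133093860 to 133149116). The flanks were 98% covered in naive, against 100% in primed. The difference came from 2 single LAD-free windows upstream in naive, the nearer of them 109 kb from the start. The naive LAD around the gene spanned 0.85 Mb (133040001 to 133890000) and the primed LAD 3.85 Mb (132280001 to 136130000).

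PCDH17 (gene ID 27253, chromosome 13, 57630108 to 57729311, plus strand, 99.2 kb), a delta-2 member of synapses in the mouse basal ganglia, was the single member with less cover in primed. Its body was 100% covered in naive, against 89.9% in primed. The difference is 1 window, 57640001 to 57650000, which lay in a naive LAD and broke the primed LAD 9.89 to 19.9 kb downstream of the first base. The first 50 kb was thus 100% covered in naive, against 80% in primed, and the last 50 kb was at 100% in both. Upstream the order turned, with 90% of 500 kb covered in naive and 96% in primed. Toward the far end of that stretch, 460 kb away, lies PRR20E, the last of 5 copies of PRR20 (PRR20A to PRR20E), covered at 7.21% in both. These copies are near-identical, and how reads with several matches were treated is unknown, which makes the calls there uncertain.

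PCDH18 (gene ID 54510, chromosome 4, 137518918 to 137532494, minus strand, 13.6 kb) is a delta-2 member that binds the adaptor Dab1 in mice. Its body was 81.6% covered in naive, against 100% in primed (-18.4 points, the widest difference among the members). It rests on 1 window. The naive LAD that covers the gene ends at 137530000 and the next begins after the single LAD-free window, so the start of the gene, at 137532494, lay outside naive LADs and inside a primed one. On either side the naive list was cut by 1 further single window, and the flanks were 97.2% covered in naive, against 100% in primed. The naive LAD over the gene measured only 0.23 Mb, against 2.1 Mb in primed (136140001 to 138240000). SLC7A11, the cystine transporter gene and the next coding gene on one side at 632 kb, was 45.9% covered in naive, against 97.0% in primed.

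PCDH20 (gene ID 64881, chromosome 13, 61409685 to 61415849, 6.17 kb), which in mice helps to place neurons in their cortical layer, was covered at 100% in both lists. Its naive LAD ran for 1.61 Mb (61230001 to 62840000) and its primed LAD for 4.05 Mb (59700001 to 63750000). The flanks were at 99% in naive and 100% in primed, owing to 1 naive window 186 kb downstream of the start. With a body of this size the whole gene touches 2 windows, so its call rests on 2 values per list.

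PCDH15 (gene ID 65217, chromosome 10, 53802771 to 55627942, minus strand, 1825 kb) is the longest member and encodes the lower part of the tip link, the thread that opens the transduction channel of hair cells. Loss of the gene causes a form of Usher syndrome. In all, the body was 97.3% covered in naive, against 100% in primed, a difference of -2.74 points that became -5.48 when LADs under 50 kb were left out. The naive list cut it at 5 single windows, beginning at 54720001, 55140001, 55180001, 55490001 and 55520001, while 1 primed LAD of 2.42 Mb (53610001 to 56030000) held the whole gene. Counted from the start, the breaks fall at 97.9, 128, 438, 478 and 898 kb, all within the first 1 Mb of the gene, and neither end stretch of 50 kb was touched in either list. The same annotation gives another start inside the gene, at 54801231, which lay in LADs of both lists, 71.2 kb from the nearest LAD-free base in naive and 1191 kb in primed. Downstream of the gene both lists were broken, with 76% of 500 kb covered in naive and 84% in primed. Upstream, both were at 98%.

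**Figure D2:**
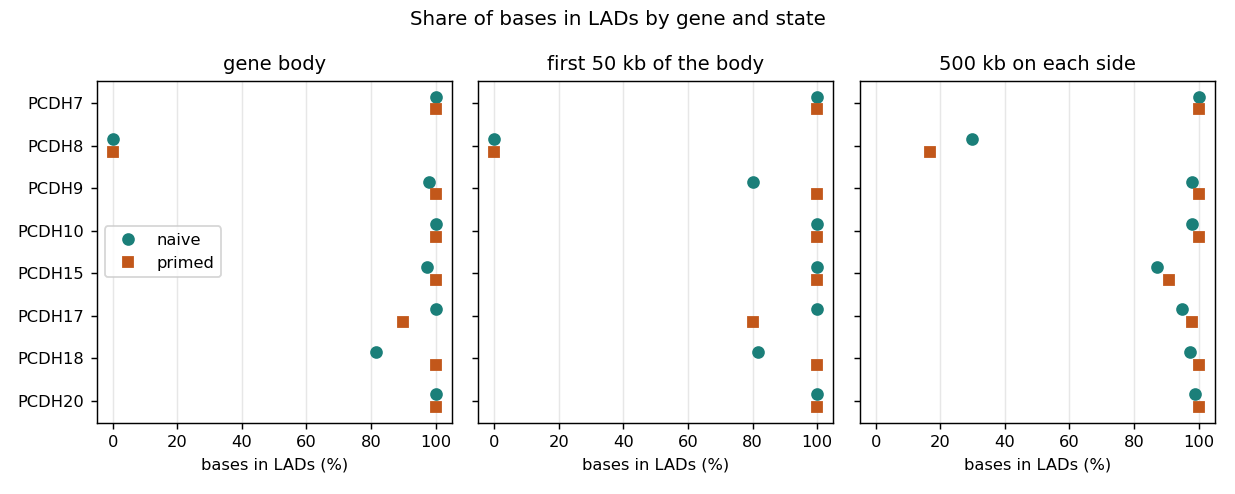
Percent of bases in naive (circles) and primed LADs (squares) for each gene, over the gene body, the first 50 kb of the body (whole body where shorter) and 500 kb on each side. The 7 genes other than PCDH8 sit at 80% or above in all 3 panels; PCDH8 is at 0% in both body panels, with flanks at 29.9% in naive and 16.9% in primed.

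PCDH8 (gene ID 5100, chromosome 13, 52842889 to 52848640, minus strand, 5.75 kb) is the paraxial protocadherin. In frog, fish and mouse embryos it acts in the cell movements and segmentation of paraxial mesoderm, and in rat neurons, as arcadlin, it is induced by activity. Neither list covered any of its body (0% in both), which touches a single window. It lay in a LAD-free stretch of 630 kb in naive (52300001 to 52930000) and of 450 kb in primed (52580001 to 53030000). The nearest LAD was 81.4 kb upstream in naive and 181 kb upstream in primed. On that side the LADs began in pieces: the first of 100 kb or longer was 161 kb away in naive (53010001 to 53140000) and 401 kb away in primed (53250001 to 54150000). On the other side the nearest LAD of 100 kb or longer was 5073 kb away in naive and 4343 kb in primed. PCDH8 therefore lies at the outer side of a border zone, with 59.7% of the 500 kb upstream covered in naive and 31.7% in primed, and with 0% of the 500 kb downstream in naive and 2% in primed. The zone differed between the lists at OLFM4, an intestinal stem cell marker gene 180 kb away, 100% covered in naive, against 86.0% in primed, and at the pseudogene PCDH8P1 (53200032 to 53202291), 100% covered in naive, against 0% in primed. CNMD, the chondromodulin gene on the downstream side at 103 kb, was at 0% in both. PCDH8 also had 7 coding genes within 500 kb, more than any other member.

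The surroundings set PCDH8 apart from the other 7 as its body did. Over both flanks of 500 kb, the 7 were covered at 87% to 100% in naive and at 91% to 100% in primed. A flank share of at least 90% was found for 6 members in naive and 7 in primed, against 11.4% of all protein-coding genes in naive and 11.1% in primed. The median over all protein-coding genes was 0% in both lists. Most members stand alone: PCDH9, PCDH10, PCDH15, PCDH18 and PCDH20 had no other coding gene within 500 kb, PCDH7 had 1 and PCDH17 had 5, whereas the median over all protein-coding genes was 13. The part that gene density plays in these shares was not tested.

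Of the members, 3 on chromosome 13 and 2 on chromosome 4 formed runs. PCDH17, PCDH20 and PCDH9 stand within 9.6 Mb of chromosome 13 (57630108 to 67230336), a stretch 97.7% covered in naive, against 99.1% in primed. It was split into 22 LADs in naive and 9 in primed, and no break was longer than 20 kb in either. All 7 coding genes in it were in LADs of both lists, among them DIAPH3, a formin gene, and TDRD3, a Tudor domain gene. On chromosome 4, PCDH10 and PCDH18 stand 4.31 Mb apart, with a stretch from one through the other 98.1% covered in naive, against 99.8% in primed. Here the naive list had 9 LADs and the primed list 2, parted by the single window 136130001 to 136140000. PABPC4L was the sole other coding gene between them and was covered at 100% in both. PCDH7, also on chromosome 4, lies 102 Mb from PCDH10 and outside this run, with 73.0% of the DNA between them in naive LADs and 74.9% in primed LADs. PCDH8 stands outside the run on chromosome 13. The stretch from PCDH8 to PCDH17, 4.78 Mb, was less complete, at 86.4% in naive and 91.6% in primed. For scale, LADs made up 52.3% of chromosome 13 in naive and 51.1% in primed, 72.3% and 73.2% of chromosome 4, and 45.0% and 36.9% of chromosome 10, which carries PCDH15. These chromosome shares count every base up to the last gene or LAD. Unassembled stretches, where no LAD can be called, are included and lower the shares.

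**Figure D3:**
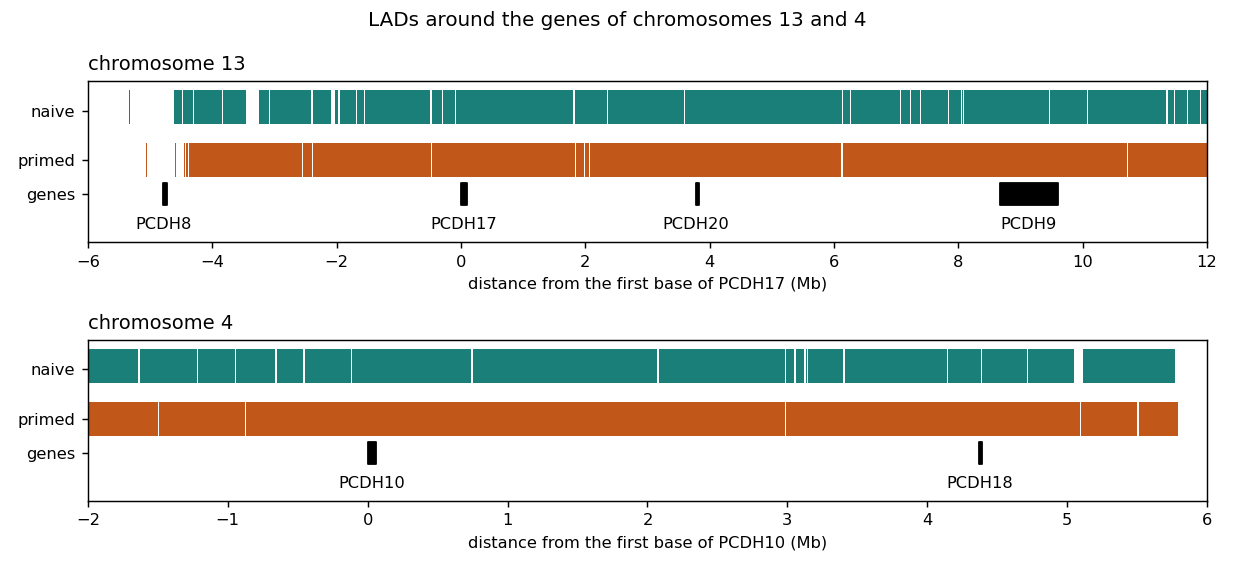
Naive (upper) and primed LADs (lower track) along chromosome 13 and chromosome 4, plotted in Mb from the first base of PCDH17 and of PCDH10, with genes in black (the shortest drawn wider than scale to be seen). PCDH17, PCDH20 and PCDH9 lie inside nearly unbroken LADs, with PCDH8 before their edge.

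In 6 of 7 cases the LAD around the member was longer in primed. The LAD that held most of the body measured 2.78 Mb in naive and 4.74 Mb in primed for PCDH7, 1.19 and 4.52 Mb for PCDH9, and 0.85 and 3.85 Mb for PCDH10. It measured 1.11 Mb in naive and 2.42 Mb in primed for PCDH15, 0.23 and 2.1 Mb for PCDH18, and 1.61 and 4.05 Mb for PCDH20. PCDH17 was the exception, at 1.86 Mb in naive and 1.78 Mb in primed, where the window near its start cut the LAD. The median LAD of each list was 20 kb long. Primed LADs were longer on average over the whole list, with a mean of 233 kb, against 157 kb in naive. LADs of 2 Mb or longer numbered 206 in primed and 100 in naive, so longer primed LADs are not particular to these genes. The LADs around the members were longer than 85.3% (PCDH18) to 99.6% (PCDH7) of the 9178 naive LADs and than 96.0% (PCDH17) to 99.3% (PCDH7) of the 5671 primed LADs. These ranks were in part fixed in advance. A long LAD is more likely to hold a gene, and a LAD that holds a whole body is at least as long as that body. The LADs that hold other covered genes were not compared. The lengths do not mean that the naive list left much out. Within the 7 primed LADs, naive LADs covered 94.8% (PCDH18) to 99.4% (PCDH17) of the bases, and all 40 naive gaps in them were single windows. The median naive cover was 98.4% over the 206 primed LADs of 2 Mb or longer. PCDH9 (96.9%), PCDH15 (97.9%) and PCDH18 lay below it, and PCDH7 (99.2%), PCDH10 (98.7%), PCDH17 and PCDH20 (99.0%) above. The share of single windows among the naive gaps of other primed LADs was not counted. Naive LADs per Mb of primed LAD had a median of 1.55 over the 206 primed LADs of 2 Mb or longer. The values for PCDH18 (3.81), PCDH9 (3.32) and PCDH15 (2.48) were above it, and that for PCDH10 (1.56) was close to it. PCDH20 (1.23), PCDH17 (1.12) and PCDH7 (1.05) were below. The primed LAD of PCDH17, at 1.78 Mb, is shorter than the 2 Mb minimum of this comparison.

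**Figure D4:**
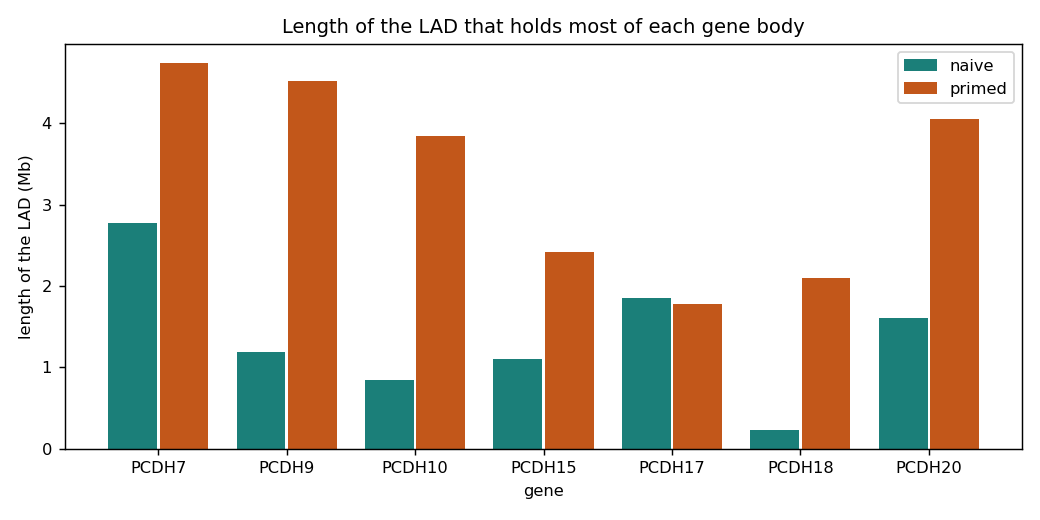
Length in Mb of the LAD that holds most of each gene body, for naive (left bar) and primed (right bar), in the 7 genes that lie in LADs. The primed bar is taller for all genes except PCDH17, at 1.86 Mb in naive and 1.78 Mb in primed.

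Breaks inside the bodies were few and nearly all naive. Naive LADs had 15 edges inside member bodies, 4 in PCDH9, 10 in PCDH15 and 1 in PCDH18, and primed LADs had 2, both in PCDH17. No edge lay in the last 50 kb of a body longer than 50 kb in either list. Breaks of this kind are common in long genes. Of the 270 protein-coding genes of 400 kb or longer in LADs of both lists, 56.7% were cut by at least 1 gap in naive and 35.2% in primed, and 41.5% had more gaps in naive than in primed. Of the 3 long members, PCDH9 and PCDH15 were cut in naive and none in primed. The 270 genes had a median of 1 naive gap (quartiles 0 and 2), so the 2 of PCDH9 lay at the upper quartile and the 5 of PCDH15 above it, as in 26 genes with 5 or more. Per 100 kb, PCDH15 had 0.274 naive gaps and PCDH9 0.216, against a median of 0.127 over the 270 genes.

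**Figure D5:**
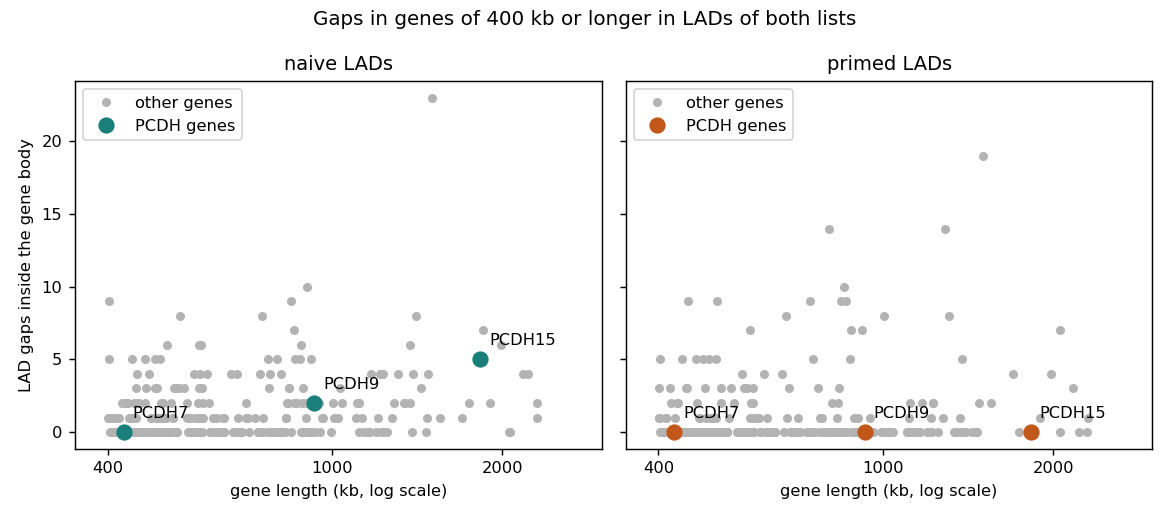
Number of LAD gaps inside the gene body against gene length (log scale, kb) for the 270 genes of 400 kb or longer in LADs of both lists, naive on the left and primed on the right; each point is 1 gene. PCDH9 with 2 and PCDH15 with 5 naive gaps stand among the other genes, and PCDH7 has 0 in both.

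Most starts lay in LADs too. The annotated start was in a naive LAD for 6 members and in a primed LAD for 7, with PCDH18 as the difference, against 17.8% and 17.4% of the 15815 protein-coding genes whose strand was known. Among genes in LADs of both lists, 10.7% had their start outside naive LADs and 7.73% outside primed LADs. Of the 7 members in LADs, 1 start was outside in naive and 0 in primed. LAD-free DNA came within 20 kb of the start for PCDH9 and PCDH18 in naive and for PCDH17 in primed, against 24.1% of such genes in naive and 19.2% in primed. These counts are close to the background. In each of the 3 genes the window near the start was LAD-free in 1 list only.

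The sequences around 5 starts are shown because Dam can mark only GATC, and because these are the starts that lie outside LADs in both lists (PCDH8) or in naive only (PCDH18), beside a break (PCDH9, PCDH17) or deep inside (PCDH7). They run from 250 bases before to 50 after the start, 5′ to 3′ on the strand of the gene, from RefSeq (GRCh38.p14), and capitals mark GATC, which reads the same on both strands. Their positions are chr4:30720119-30720418 for PCDH7, chr13:52848591-52848890 for PCDH8, chr13:67230287-67230586 for PCDH9, chr13:57631494-57631793 for PCDH17, whose start in this table (57631744) lies inside the annotated body, and chr4:137532445-137532744 for PCDH18.
PCDH7: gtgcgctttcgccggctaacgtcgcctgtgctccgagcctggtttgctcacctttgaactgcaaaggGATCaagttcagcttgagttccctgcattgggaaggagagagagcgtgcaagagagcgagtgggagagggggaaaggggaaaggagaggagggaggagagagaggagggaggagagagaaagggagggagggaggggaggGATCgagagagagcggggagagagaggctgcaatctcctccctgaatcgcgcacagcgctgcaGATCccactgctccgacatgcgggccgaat
PCDH8: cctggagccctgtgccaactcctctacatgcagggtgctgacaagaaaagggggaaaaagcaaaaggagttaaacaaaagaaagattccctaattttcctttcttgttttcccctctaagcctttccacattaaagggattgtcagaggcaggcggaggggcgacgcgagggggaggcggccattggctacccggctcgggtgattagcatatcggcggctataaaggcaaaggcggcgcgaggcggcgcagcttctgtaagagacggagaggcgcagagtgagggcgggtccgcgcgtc
PCDH9: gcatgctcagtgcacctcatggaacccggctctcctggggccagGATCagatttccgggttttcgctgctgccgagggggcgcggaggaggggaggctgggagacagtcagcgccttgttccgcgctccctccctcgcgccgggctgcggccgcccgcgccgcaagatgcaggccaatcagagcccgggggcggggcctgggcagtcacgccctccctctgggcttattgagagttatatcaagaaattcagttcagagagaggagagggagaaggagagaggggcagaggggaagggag
PCDH17: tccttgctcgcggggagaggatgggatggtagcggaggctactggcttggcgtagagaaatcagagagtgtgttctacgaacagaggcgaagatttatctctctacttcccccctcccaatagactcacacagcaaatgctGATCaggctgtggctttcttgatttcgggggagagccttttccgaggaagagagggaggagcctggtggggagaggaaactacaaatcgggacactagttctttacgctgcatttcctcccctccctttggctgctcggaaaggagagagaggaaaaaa
PCDH18: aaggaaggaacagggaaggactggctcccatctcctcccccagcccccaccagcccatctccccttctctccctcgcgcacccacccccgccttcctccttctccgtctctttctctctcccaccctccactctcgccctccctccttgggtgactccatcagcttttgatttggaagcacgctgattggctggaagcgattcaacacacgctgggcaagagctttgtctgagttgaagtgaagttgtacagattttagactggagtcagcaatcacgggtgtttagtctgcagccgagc

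The PCDH7 window held 3 GATC sites, at -183, -43 and 20 bases from the start, PCDH9 held 1 at -206 and PCDH17 held 1 at -109. The PCDH8 and PCDH18 windows held none. Of 22156 such windows of 15813 protein-coding genes, 40.0% held at least 1. A call covers 10 kb, of which these windows are a small part, and the number of GATC sites in the rest was not counted here. What site density contributes to a LAD-free window was therefore not tested. The share of G and C in these windows ran from 52.7% for PCDH17 to 65.7% for PCDH9, against a median of 62.3%. Only the PCDH9 window lay above that median. They held 10 (PCDH18), 11 (PCDH17), 16 (PCDH7), 20 (PCDH8) and 20 (PCDH9) CpG, against a median of 21. PCDH15 had 2 windows of this kind, with 1 GATC each. In all, 6 of the 8 members were matched in the RefSeq promoter table, and PCDH10 and PCDH20 were not.

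Other genes of the family and its partners were read from lists chosen with earlier results known. Of the 3 delta protocadherins that are not among the 8, PCDH1, an airway and epithelial gene, was at 0% in both lists with no LAD in its flanks. PCDH11X was 82.2% covered in naive, against 83.3% in primed, with 9 gaps in each. It has a near-identical copy on the Y chromosome, which makes its calls uncertain. PCDH19, an epilepsy gene of the delta-2 group, was 57.6% covered in naive, against 99.8% in primed (-42.1 points, wider than any difference among the 8). PCDH12, an endothelial protocadherin next to PCDH1, was at 0% in both. None of the 53 clustered protocadherins was in a LAD of either list, while 10 of 12 type II cadherins were in LADs of both, with median body shares of 99.5% in naive and 100% in primed, beside 98.9% in naive and 100% in primed for the 8 members. Over all protein-coding genes the shares in LADs were 18.9% in naive, 17.3% in primed and 15.4% in both. These 10 were CDH6, CDH7, CDH8, CDH9, CDH10, CDH11, CDH12, CDH18, CDH19 and CDH20, adhesion genes of neurons and mesenchyme, while CDH22 and CDH24 were at 0% in both. All 53 clustered protocadherins stand side by side on chromosome 5, so they are not 53 separate observations. Several type II cadherins also lie near one another, and the comparison is a description.

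Naive LADs held 3 of 15 genes of proteins that work with the members and primed LADs held 2, near the 18.9% of all protein-coding genes in naive and 17.3% in primed. Single partners nevertheless differed between the lists. CDH2, the N-cadherin gene whose product PCDH8 helps to internalise in rat neurons, was 97.1% covered in naive, against 95.9% in primed. CYFIP2, of the WAVE complex, was at 100% in naive and 0% in primed, whereas its relative CYFIP1 was at 0% in both. DAB1, the adaptor bound by Pcdh18 in mice, was at 93.1% in naive and 0.644% in primed. NCKAP1, the WAVE subunit bound by PCDH10, was at 47.1% in naive and 62.5% in primed. Of 10 genes of the tip link and Usher complex, TMC1, a subunit of the transduction channel, was the single one in LADs, at 93.7% in both, and 1 of 10 is near the 15.4% of all protein-coding genes in LADs of both lists. CDH23, the partner of PCDH15 in the tip link, was at 0% in both and so lay outside LADs, as most protein-coding genes do.

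For the 3 members with the widest differences, the most similar coding genes of comparable length were found over 4 values, body and flank shares in each list. For PCDH18 these were RIOK2, a kinase gene (85.5% of the body in naive, 100% in primed, 4.38 points away), and PRDM8 (77.3% and 100%, 4.42 points). For PCDH17 they were TFAP2D (100% in naive and 89.1% in primed, 2.54 points) and DSE (100% and 89.5%, 4.14 points). For PCDH15 they were CSMD1 (100% in both, 2.84 points) and ROBO2, an axon guidance receptor gene (98.3% and 100%, 4.25 points).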

How the data were processed

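The LAD lists were deposited as intervals (chromosome, start, end) of 10 kb windows, with other values such as scores absent, per the file contents. Per the submitters' processing notes, BWA, SAMtools 1.10, SICER and build hg38 were used. The order of steps, the thresholds and the pooling of the 3 LMNB1 with the 3 Dam-only libraries in each state are unknown here. The labels do not say whether the libraries came from separate cultures. Each list was tied to its state by its name; the labels call the lists final while the files are named simple, and what sets these apart is not given.

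Covered bases were computed from the interval coordinates, 1-based here, over gene bodies from the RefSeq table (GRCh38.p14), the first and last 50 kb, and 500 kb on each side. Strand came from the RefSeq promoter table, and for PCDH10 and PCDH20 from general knowledge. Members and gene lists were chosen with earlier results of these data known. Named beside the members were their nearest coding neighbours, list genes at 50% or differing by 10 points or more, and the 2 most similar genes of 3 members; PCDH1, PCDH12, CYFIP1, CDH23, the non-coding genes and the genes inside the runs were named after their values were seen. Alternatives joined or left out short pieces and changed thresholds and widths. Functions were tested on a list simulated from the primed LADs by clearing every window of 200 genes: 200 of 200 switched genes among 19974 were recovered. Whole bodies were cleared, so this checks the code and not how well differences of single windows are found. Body shares recomputed window by window for 200 genes differed by at most 0 points. The scripts ran in Python 3.11.15 with pandas 2.3.3, numpy 2.4.6 and, for the plots, matplotlib 3.10.9.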

Additional observations from a re-analysis of the deposited data

How the results depend on the processing

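Under the other settings tried, 7 members stayed in LADs of each list, apart from the stricter minimum of 90% of the body, which left 6 in each (PCDH8 and PCDH18 out in naive, PCDH8 and PCDH17 in primed). Leaving out PCDH15, chosen after seeing the data, left 6 in each. The breaks rest on single windows. With LADs less than 50 kb or less than 100 kb apart joined, naive and primed edges inside bodies went to 0 and 0, the naive share of all member bases to 99.829%, and the start of PCDH18 entered a naive LAD, so that 7 starts lay inside. All body differences between the lists were then 0 for PCDH9, PCDH15, PCDH17 and PCDH18. The naive flank share, 88.0% as reported, was 91.983% with LADs less than 50 kb apart joined, 92.733% at 100 kb, and 84.2642% with LADs under 100 kb left out. The primed flank share, pooled in the same way, was 88.2% with the main settings. It was 91.608% with LADs less than 100 kb apart joined and 90.7415% with flanks of 1 Mb on each side. Both pooled shares include PCDH8, whose flanks were at 29.9% in naive and 16.9% in primed. Joining adds bases by construction; the cause of the other moves was not tested. With LADs under 50 kb or under 100 kb left out, the body difference of PCDH15 was -5.48 points, against -2.74 as reported, because short pieces between its breaks were lost. No body difference changed sign under other settings, but those at 0 had no sign to change. The order of the pooled flank shares did turn. Naive was the lower as reported, but the higher after joining over gaps below 50 kb (91.983%, against 90.108% in primed). It was also the higher at 100 kb (92.733% and 91.608%) and with 250 kb flanks (88.3476% and 87.5%). It stayed the lower with 1 Mb flanks and with short LADs left out. The last stretch of the bodies turned too, at 100 kb instead of 50 kb (98.2963% in naive, 96.7455% in primed). This turn comes from the definition, since bodies shorter than the stretch are taken whole. At 100 kb that holds for PCDH17 (99.2 kb), whose primed break near the start is then counted. At 50 kb the lower naive share comes from PCDH18, taken whole with the break at its start. The depth behind a window is unknown, so a LAD-free window cannot be told apart from one with too few reads. No paired analysis was possible because each state has 1 list in which the replicates are not kept apart.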
